A study of Mus musculus with 36 samples.

Results

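Complex I of the mitochondrial respiratory chain is assembled from core and accessory subunits, and the genes described here are those of its nuclear-encoded subunits. They were taken by name: every gene with the symbol stem Nduf followed by a, b, c, s, v or ab and a number, and with a probe set annotated to that symbol alone. The assembly factors (stem Ndufaf) were left out. This gave 36 genes of the 18193 with such a probe set, and where a gene had several such sets the brightest, by its mean over the 36 arrays, stood for it. Of the 36, 33 were bright enough to be tested, among 22518 probe sets and 11353 genes tested in all. The RNA came from heart-puncture blood of 18 male mice aged 8 weeks and housed singly, with 3 mice per inbred strain. The strains were 129S1/ImJ, FVB/NJ, DBA/2J, C57Bl/6J, C3H/HeJ and A/J. Each extract was hybridized to an Affymetrix array as it was (whole RNA) and again after treatment with the GLOBINclear kit, which pulls alpha and beta globin mRNA out of the extract. The 36 arrays thus form 12 groups of 3, a strain in a preparation, and the study asked how globin mRNA affects array measurements of mouse blood. Only males were used.

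Complex I takes electrons from NADH, passes them along a row of iron-sulfur clusters in the arm that reaches into the matrix, and hands them to ubiquinone, while its membrane arm pumps protons. The core subunits carry the chemistry, the membrane core is encoded by mitochondrial DNA, and the accessory subunits surround and stabilize both arms. In blood the enzyme belongs to white cells, platelets and reticulocytes, since a red cell sheds its mitochondria as it matures.

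The promoters of nuclear respiratory genes are known for short GC-rich sites of the factors NRF1 and GABP (which binds an ETS core) and for YY1 sites, so the windows of the complex I genes were searched for these letters. A RefSeq window of 300 bases, 250 before and 50 after the annotated start (mouse build GRCm38.p6), was at hand for 32 of the 36 genes and not for Ndufa2, Ndufa4l2, Ndufb9 and Ndufs1. On either strand, the NRF1 consensus site was found in 5 of the 32 genes and in 5.19% of 27025 genes with windows. The ETS letters CCGGAAG were found in 4 (12.5%) and in 9.93% of all genes. The YY1 letters AANATGGC were found in 11 (34.4%) and in 6.96% of all genes. Per window of the same length the shares over all 32851 windows were 4.60%, 8.86% and 6.05%, and no match of 1 motif overlaps another in these windows. Of the 12 YY1 matches, 6 began 23 to 39 bases after the start on the gene's own strand, where the letters ATGGC can also be the opening of a coding sequence. Such a match is a description of the letters and shows neither a bound site nor a cause. The following stretches run from 120 bases before the start to 30 after it, on the gene's strand, with the matched letters in capitals. They are those of the genes with the largest and second largest rise and of the gene that fell. The last is of a gene called between strains in GLOBINclear RNA alone. Each printed stretch holds a match, whereas 19 of the 32 genes hold a match to any of these motifs, beside 19.4% of all genes. The window of Ndufa13, the gene with the smallest strain p, holds none.
Ndufb7 (chr8:83566638-83566787, plus strand, ETS letters): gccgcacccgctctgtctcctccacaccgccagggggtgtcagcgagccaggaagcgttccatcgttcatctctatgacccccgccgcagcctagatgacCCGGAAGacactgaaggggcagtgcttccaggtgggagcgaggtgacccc
Ndufc1 (chr3:51408926-51409075, minus strand, YY1 letters): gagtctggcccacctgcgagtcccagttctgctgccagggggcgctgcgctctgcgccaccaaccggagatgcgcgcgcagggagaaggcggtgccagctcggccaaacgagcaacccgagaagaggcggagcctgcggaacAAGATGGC
Ndufs8 (chr19:3912745-3912894, minus strand, ETS letters reversed): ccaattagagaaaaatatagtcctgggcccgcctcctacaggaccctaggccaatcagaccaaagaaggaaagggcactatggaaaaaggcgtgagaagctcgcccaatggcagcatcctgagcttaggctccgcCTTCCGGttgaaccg
Ndufs5 (chr4:123718157-123718306, minus strand, NRF1 site reversed): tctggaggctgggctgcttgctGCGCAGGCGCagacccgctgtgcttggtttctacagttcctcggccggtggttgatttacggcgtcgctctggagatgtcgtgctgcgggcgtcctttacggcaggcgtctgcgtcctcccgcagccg

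Values are deposited log2 expression summaries, so a difference of 1 is a doubling, and levels are not compared between genes because each probe set has its own brightness. All 7 tested probe sets of the adult globin genes fell after treatment, by 0.12 to 3.47. Arrays of whole RNA had 2196 to 3122 probe sets at log2 5 or more, and those of GLOBINclear RNA 3802 to 5278. The lowest correlation between arrays within a group was 0.932. The difference between 3′ and 5′ probe sets of Actb and Gapdh, a measure of RNA length, averaged 0.13 ± 0.18 (SD, n = 18) in whole and 1.17 ± 0.20 in GLOBINclear RNA, and the 18 spike-in control probe sets averaged 11.6 and 9.50. Markers of blood cells were read in both preparations, and the mean of every marker list was higher in GLOBINclear RNA. In whole RNA the median levels of the NK cell, neutrophil and monocyte markers found were 3.08, 3.46 and 3.51. These lay near the filter for testing, log2 2.89. Single markers varied: 1 of 10 red cell markers fell. In each of the T cell, neutrophil, monocyte and NK cell lists, 1 marker was not called (limma adjusted p of 0.05 or more). The mean over 10 red cell markers was 7.37 in whole and 8.73 in GLOBINclear RNA, over 8 platelet markers 10.0 and 11.3, over 7 B cell markers 4.37 and 6.27, and over 6 T cell markers 4.54 and 5.82. Neutrophil, monocyte and NK cell markers went from 4.93 to 6.05, from 5.70 to 6.61 and from 3.70 to 4.93. The part that these shifts play in the results on complex I was not tested. Both preparations of a mouse came from the same extract, and so from the same cells. Between mice, fewer cells of a type and less RNA per cell cannot be told apart in a bulk sample.

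After globin removal, complex I genes read higher almost throughout. By limma with the mouse as a block and Benjamini-Hochberg adjustment over all probe sets tested (threshold 0.05), 32 of the 33 rose and 1, Ndufs8, fell; with the arrays centred on their spike-ins all 33 rose, and with all arrays quantile normalized to 1 distribution 25 rose and 3 fell. Over all probe sets tested 39.4% rose and 47.6% fell. Of the 11353 genes tested, each by its brightest set as here, 5077 rose and 4891 fell. The median change over these genes was 0.04, and 2504 of them rose at least 2-fold. The median change of the 33 was 1.55, from -1.44 to 3.15, beside -0.05 for all probe sets tested, and 28 rose at least 2-fold, beside 18.2% of all probe sets. The size depends on the scaling: the median was 0.54, with 8 genes at least 2-fold up, when all arrays were quantile normalized to 1 distribution, and 3.62, with 32 such genes, when they were centred on their spike-ins. Under these scalings the median change over all probe sets tested was -0.08 and 2.03, in that order. The shares of all probe sets that rose or fell under them were not counted. The median level of all 36 genes, those too dim to be tested included, was 4.54 in whole and 6.34 in GLOBINclear RNA. Of the 33 genes, 30 were higher in GLOBINclear RNA in all 18 mice and 1 was lower in all. The same was not counted over all probe sets, so it is not shown to be particular to complex I. In 7 genes (Ndufa2, Ndufa3, Ndufa6, Ndufb7, Ndufc1, Ndufs7 and Ndufv3) every GLOBINclear array lay above every whole array, as in 4.83% of all probe sets. Leaving out any 1 mouse kept the counts at 32 and 1, with a median change between 1.52 and 1.58.

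**Figure D1:**
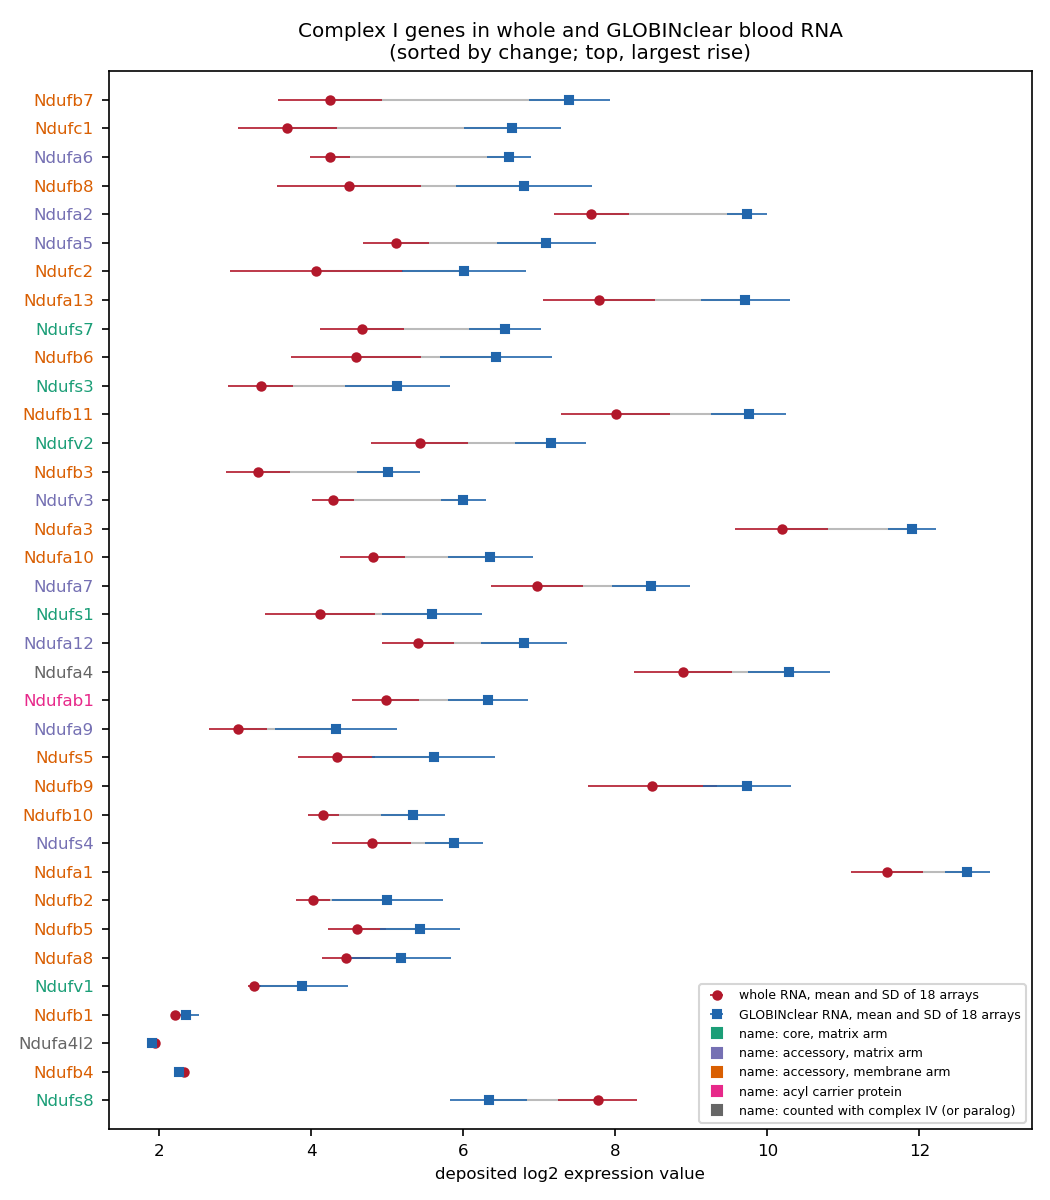
Mean deposited log2 value of the 36 complex I genes in whole RNA (red circles) and GLOBINclear RNA (blue squares), with the SD over 18 arrays as bars, sorted by the change and with names coloured by role. All tested genes except Ndufs8 moved to the right, while the 3 genes near log2 2 were too dim to be tested; under quantile normalization of all arrays Ndufa8, Ndufb5 and Ndufs4 turn to the left, and under spike-in centring Ndufs8 turns to the right.

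The core subunits of the matrix arm carry the flavin and the iron-sulfur clusters. Of the 6 analysed, 5 rose and 1 fell, with a median change of 1.60. Ndufs7, which holds the cluster that passes electrons to ubiquinone, rose by 1.88 ± 0.08 (SE), from between 3.86 and 5.73 (median 4.58) in whole RNA to between 5.91 and 7.48 (median 6.48). Ndufs3, a core subunit next to the quinone site, rose by 1.80 ± 0.11, and Ndufv2, a cluster-bearing partner of the NADH-binding subunit, by 1.72 ± 0.08. Ndufs1, the largest subunit of the arm, rose by 1.47 ± 0.09. Ndufv1 itself, which binds NADH and the flavin, rose least of the 33 by this measure, by 0.62 ± 0.13 (limma adjusted p = 1.60e-04, higher in 15 of 18 mice). Its whole-RNA arrays all lay between 3.09 and 3.35, and its GLOBINclear arrays spread from 3.17 to 5.04.

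Ndufs8, a core subunit with iron-sulfur clusters close to the quinone site, was the exception. Its representative probe set read 7.09 to 8.63 (median 7.75) in whole RNA and 5.54 to 7.26 (median 6.31) in GLOBINclear RNA. The ranges overlapped slightly, but all 18 mice were lower after treatment, by 0.79 to 2.19. The change was -1.44 ± 0.10 (limma adjusted p = 9.47e-11), and it turned to 0.64 when arrays were centred on their spike-ins. That probe set has the suffix x_at, which Affymetrix gives to sets whose probes can match other transcripts. A second x_at set of the gene fell by 0.57, and another rose by 0.39. The set of the gene with the suffix a_at, which Affymetrix gives to sets that match transcripts of the same gene, went from 4.50 to 6.02, a rise of 1.52 ± 0.08 in all 18 mice, and the fifth tested set rose by 0.63. The direction of Ndufs8 thus depended on the probe set, and the mean of its sets changed by 0.07. The representative sets of Ndufa3, Ndufa7, Ndufa12 and Ndufv1 have the suffix x_at as well, so the same limit applies to their readings. Those of Ndufa2, Ndufa13, Ndufab1 and Ndufc2 have the suffix s_at. No probe sequences were at hand to see whether the s_at sets match other transcripts too. Leaving out x_at sets changed the representative set of 5 genes alone: Ndufs8, Ndufa3, Ndufa7, Ndufa12 and Ndufv1. Of the 5, Ndufs8 alone changed direction, and the rest kept their direction and their side of the threshold. The other genes kept the same set, so nothing could change in them.

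The accessory subunits of the matrix arm all rose, 8 of 8, with a median change of 1.61, though under quantile normalization of all arrays Ndufs4 read -0.11 and Ndufa12 0.06, neither of them called. Ndufa6, a member of the LYR family that docks an acyl carrier protein, read 3.91 to 4.90 (median 4.18) in whole RNA and 6.03 to 7.07 (median 6.60) in GLOBINclear RNA. The preparations did not overlap, and the rise was 2.35 ± 0.09 (limma adjusted p = 7.50e-15). Ndufa2, a small subunit with a thioredoxin-like fold, read 6.50 to 8.51 (median 7.80) and then 9.18 to 10.23 (median 9.76), again without overlap, a rise of 2.05 ± 0.10. Ndufa5 read 4.81 to 6.64 (median 4.92) and then 6.21 to 9.13 (median 7.05), a rise of 1.98 ± 0.11. Its ranges met through a single mouse, FVB/NJ replicate 2, which gave the highest value in both preparations. Ndufv3, Ndufa7, Ndufa12 and Ndufa9, the last a subunit beside the quinone site, rose by 1.71, 1.50, 1.40 and 1.29. Ndufs4, a subunit added late in assembly whose loss causes encephalopathy in mice, rose by 1.08 ± 0.09.

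Of the 19 accessory subunits of the membrane arm, 17 were tested and all rose, with a median change of 1.71; under quantile normalization of all arrays Ndufa8 and Ndufb5 read -0.23 and -0.24, and Ndufb2 (0.26) and Ndufb9 (0.08) were no longer called. Ndufb7, a subunit on the intermembrane face held by pairs of cysteines, changed most of the 33. It read 3.23 to 5.90 (median 4.06) in whole RNA and 6.66 to 8.67 (median 7.29) in GLOBINclear RNA. No array of one preparation reached the other, and the rise was 3.15 ± 0.14 (limma adjusted p = 1.41e-13), between 2.19 and 4.50 in single mice. Ndufc1, a small membrane-spanning subunit, read 2.84 to 4.95 (median 3.88) and then 5.27 to 7.98 (median 6.61), a rise of 2.96 ± 0.12. Ndufb8, a subunit of the far end of the arm, read 3.77 to 7.80 (median 4.10) and then 5.61 to 9.33 (median 6.83), a rise of 2.30 ± 0.11. The wide range of Ndufb8 in whole RNA came from the FVB/NJ mice, which alone read above 5. The genes Ndufc2, Ndufa13, Ndufb6, Ndufb11, Ndufb3, Ndufa3 and Ndufa10 followed with rises from 1.94 down to 1.55. At the small end stood Ndufs5, Ndufb9, Ndufb10, Ndufa1, Ndufb2, Ndufb5 and Ndufa8, from 1.27 down to 0.73. Ndufa1, a short subunit needed for assembly of the arm, was at 11.57 in whole and 12.63 in GLOBINclear RNA.

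The remaining genes of the name rule were few. Ndufab1, the mitochondrial acyl carrier protein that sits in the complex in a pair of copies, rose by 1.35 ± 0.09, but read 0.07 and was not called under quantile normalization of all arrays. Ndufa4, named as a complex I subunit but now counted with complex IV, rose by 1.39 ± 0.08. Its paralog Ndufa4l2 was too dim to be tested, at 1.95 in whole and 1.91 in GLOBINclear RNA. Ndufb4 (2.32 and 2.27) and Ndufb1 (2.21 and 2.36) were likewise below the filter.

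Readings of the same gene by other probe sets were mostly in the same direction, but not of the same size. The 36 genes had 78 single-symbol probe sets, of which 68 were tested. Of these 60 rose and 8 fell, with a median change of 1.39, and among the 35 that did not represent a gene 28 rose and 7 fell, with a median of 1.02. Beside Ndufs8, the direction differed within 5 genes, and in each the set that fell was dim: Ndufa3 (-0.19), Ndufab1 (-0.25 and -0.27), Ndufb2 (-0.21), Ndufc2 (-0.45) and Ndufs4 (-0.17). The other sets of Ndufc2 rose by 0.54 and 0.73, and those of Ndufs4 by 0.21 and 0.36, each less than the representative set. Size differed by over 1 in further genes. Ndufb7 rose by 2.01 in its other set beside 3.15, and Ndufa7 by 0.40 in its lowest set beside 1.50. In Ndufb9 and Ndufs7 the other set showed the larger rise, 2.37 beside 1.25 and 2.95 beside 1.88. The 5 tested probe sets annotated to a complex I gene together with other symbols all rose, by 1.01 to 2.46.

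**Figure D2:**
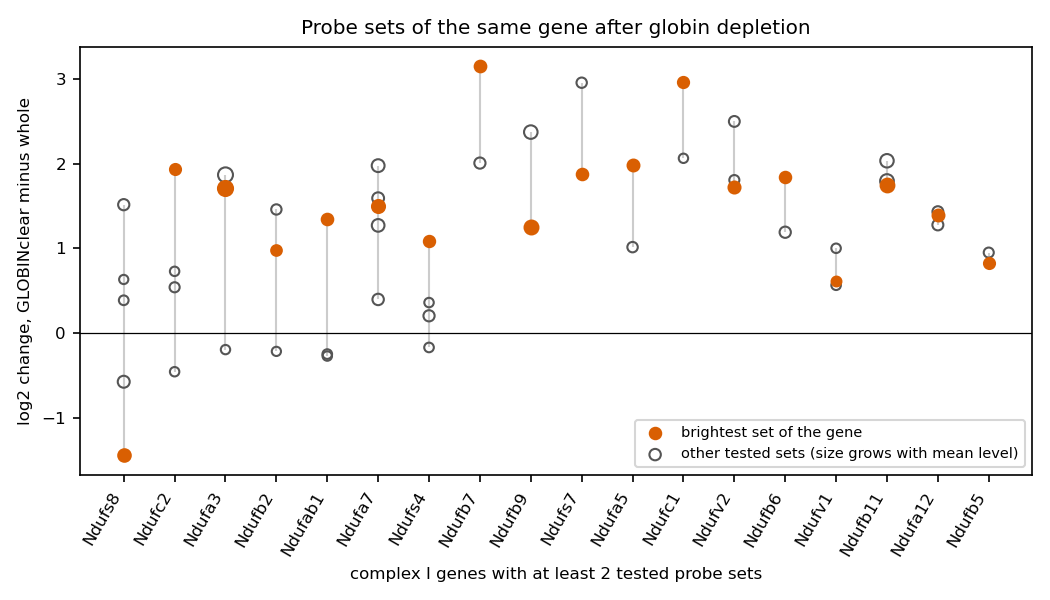
Log2 change (GLOBINclear minus whole) of every tested single-symbol probe set of the complex I genes with at least 2 such sets, ordered by the spread within the gene; filled circles are the brightest set and open circles the others, larger where the mean level is higher. Ndufs8 spans from -1.44 to 1.52, while Ndufa12 and Ndufb5 lie closely together.

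Probe sets of other genes at like signal levels also rose, so the changes were read against the level. Among probe sets with a mean of 3.5 to 5, 9 of 9 complex I genes rose with a median change of 1.27, beside 3838 of 6886 probe sets with a median of 0.33. Between 5 and 7, 15 of 15 rose with a median of 1.85, beside 1648 of 1821 with a median of 1.43. Between 7 and 9, 4 of 5 rose with a median of 1.75, beside 661 of 714 with a median of 1.36. Above 9, 4 of 4 rose with a median of 1.32, beside 558 of 663 with a median of 0.89. At the deposited scaling a rise was thus the common outcome for probe sets above 5, and the higher medians of the complex I genes were not tested against those of other genes.

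**Figure D3:**
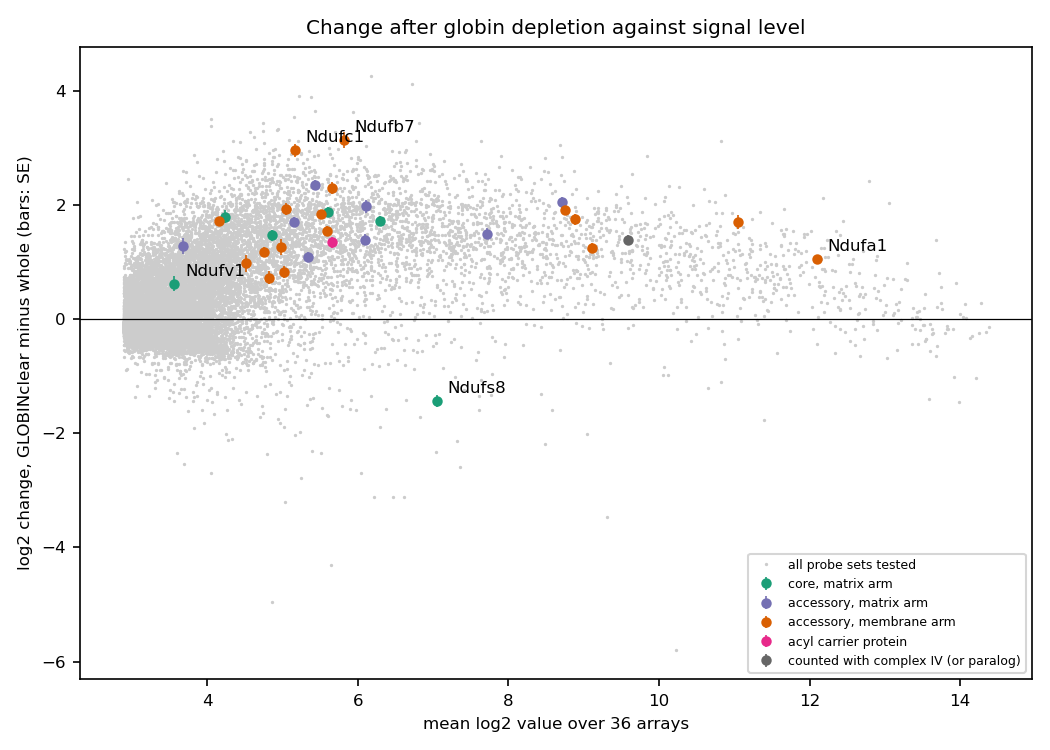
Log2 change after globin removal against the mean log2 value over 36 arrays, for all 22518 tested probe sets (grey) and the 33 complex I genes (coloured by role, bars: SE of the limma fit). The 9 complex I genes at a level of 3.5 to 5 have a median change of 1.27, beside 0.33 for all probe sets there, and Ndufs8 alone lies below 0; under spike-in centring it lies above 0, and under quantile normalization of all arrays Ndufa8, Ndufb5 and Ndufs4 lie below 0 as well.

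Genes that work with complex I were counted in the same fit. Most genes of the other respiratory complexes rose too: of 47 genes of complexes II to V, 42 were tested, of which 35 rose and 4 fell, with a median change of 1.23. Among them Uqcrq, a subunit of complex III, rose by 2.78 ± 0.11, and Atp5pb and Atp5j, subunits of ATP synthase, rose by 2.10 ± 0.08 and 1.93 ± 0.08. The factors that assemble complex I read differently. Of 19 found, 12 were tested, of which 5 rose and 6 fell, with a median change of -0.04. Ndufaf8, a partner of the assembly factor Ndufaf5, rose by 2.28 ± 0.12 and Dmac1, a factor of the distal membrane arm, by 1.89 ± 0.08, whereas Tmem126b, a factor of the early membrane arm, fell by 0.30. Of the transcription factors and coactivators of respiratory genes, 10 of 11 were tested, of which 5 rose and 4 fell, with a median of 0.13. Yy1 rose by 1.67 ± 0.09, Ppargc1a, the coactivator PGC-1 alpha, fell by 0.30 and Tfam, which packs and transcribes mitochondrial DNA, fell by 0.41. The median levels in whole RNA were 3.09 for the assembly factors and 3.47 for the transcription list, beside 6.75 for complexes II to V. These levels are over all genes found, those too dim to be tested included, whereas the median changes are over the tested genes alone. Among all tested probe sets with a mean under 3.5 the median change was -0.15. Whether the lists differ from complex I beyond their levels was not tested.

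The effect of globin removal was also estimated within each strain. The median effect over the 33 genes lay between 1.47 (FVB/NJ) and 1.69 (C3H/HeJ), beside -0.08 to -0.05 over all probe sets. No gene passed limma's F test that the 6 effects are equal (0 of 33, beside 2.75% of all probe sets), while 6 had an unadjusted p under 0.05. The smallest adjusted p was that of Ndufv1 (limma, 0.077). Its effect was 1.26 in 129S1/ImJ and 1.02 in C57Bl/6J, but 0.07 in A/J and -0.004 in FVB/NJ, each ± 0.21 (SE). In these last strains all arrays of both preparations lay between 3.09 and 3.36. Ndufb5, Ndufa9 and Ndufb8 followed with adjusted p of 0.245, 0.289 and 0.293. For Ndufb5 the effect in 129S1/ImJ was 1.55 ± 0.19 and those of the other strains lay between 0.54 and 0.83, and for Ndufa9 the effects ran from 0.52 in A/J to 2.03 in 129S1/ImJ.

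Strain differences in complex I genes were called gene by gene, and their number was not tested against that of all probe sets. In whole RNA, limma's F test over the strains called 3 of the 33 genes, beside 4.32% of all probe sets: Ndufa13 (adjusted p = 0.0054), Ndufs8 (0.0198) and Ndufb9 (0.0265). Ndufb8, Ndufs4 and Ndufb6 followed at 0.053, 0.067 and 0.121. In GLOBINclear RNA it called 6, beside 11.2%: Ndufa13 (0.00078), Ndufb9 (0.0029), Ndufs5 (0.0114), Ndufa1 (0.0135), Ndufb8 (0.0159) and Ndufv1 (0.0295). Ndufa13 and Ndufb9 were called in both, which 3.43% of all probe sets were. The number of calls in each preparation changes with single mice: 1 in whole RNA without DBA/2J replicate 1, and 10 in GLOBINclear RNA without C57Bl/6J replicate 1. Over the 33 genes the strain means spanned a median range of 0.88 in whole and 1.06 in GLOBINclear RNA, beside a median SD within strains of 0.45 and 0.42. FVB/NJ held the highest strain mean in 12 genes in whole RNA and 129S1/ImJ in 13 genes in GLOBINclear RNA. DBA/2J held the lowest in 14 and 10 genes and A/J in 10 and 10.

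**Figure D4:**
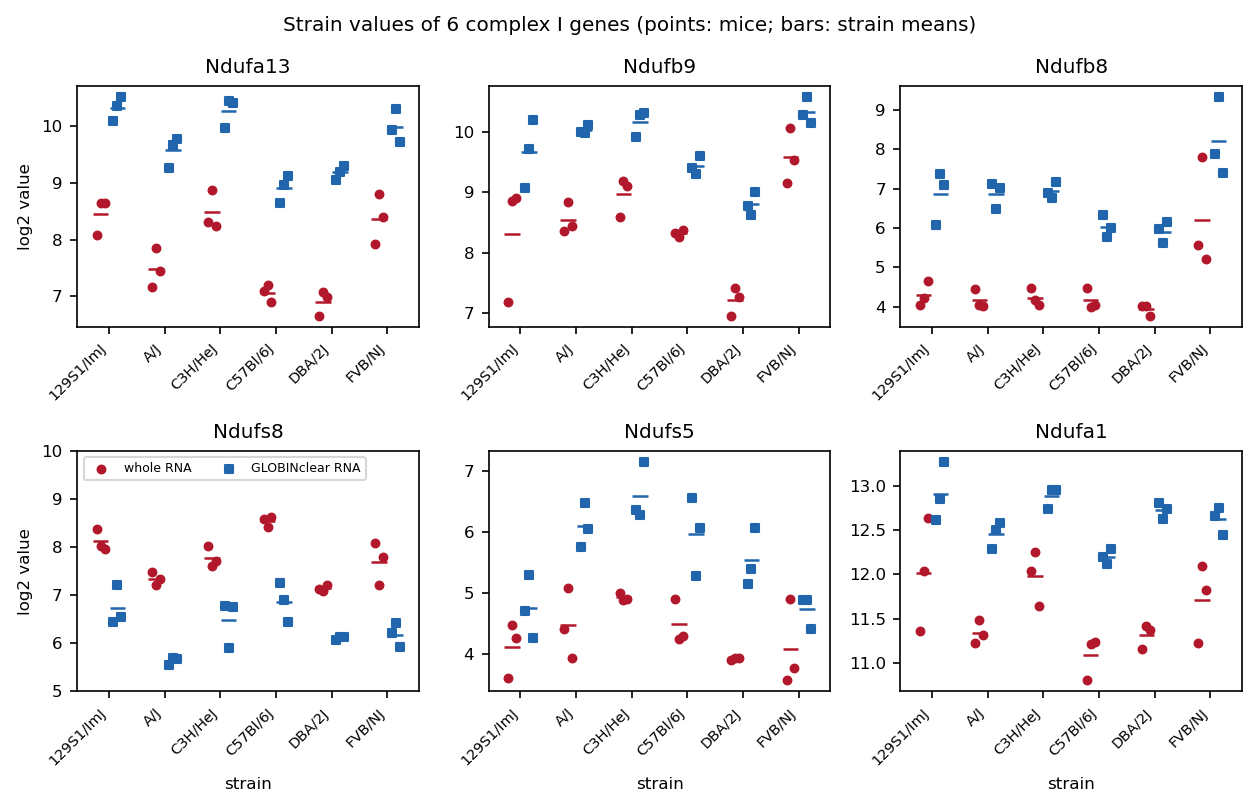
Deposited log2 values of 6 complex I genes in each mouse (red circles, whole RNA; blue squares, GLOBINclear RNA), by strain, with bars at the mean of 3 mice. Ndufa13 is low in C57Bl/6J and DBA/2J and Ndufb9 low in DBA/2J in both preparations, and all 3 FVB/NJ mice lie above the other strains in Ndufb8.

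Ndufa13, also known as GRIM-19, a subunit near the junction of the arms that was first described in cell death, gave the smallest p in both preparations. In whole RNA the C57Bl/6J mice read 7.10, 7.19 and 6.89 and the DBA/2J mice 6.66, 7.07 and 6.99. The 129S1/ImJ mice read 8.08, 8.64 and 8.65, the C3H/HeJ mice 8.31, 8.88 and 8.24, and the FVB/NJ mice 7.92, 8.80 and 8.39, all above the former, with A/J between at 7.16, 7.85 and 7.45. In GLOBINclear RNA C57Bl/6J (8.65 to 9.12) and DBA/2J (9.06 to 9.31) were again the lowest, followed by A/J at 9.27 to 9.78 and the other strains at 9.72 to 10.52. Neighbours in that order overlapped. With both arrays of a mouse averaged and a strain set against the mean of the other 5, C57Bl/6J was lower by 0.92 ± 0.18 (SE; the difference is -0.92, limma adjusted p = 0.0050), and this call remained without any 1 mouse. DBA/2J differed by -0.85 (0.0172), 129S1/ImJ by 0.77 (0.0169) and C3H/HeJ by 0.75 (0.0492). The DBA/2J call was lost without any 1 of its own mice (adjusted p up to 0.139), that of 129S1/ImJ without its replicate 2 or 3 (up to 0.105), and that of C3H/HeJ in 16 of the 18 omissions (up to 0.392). With whole arrays alone the C57Bl/6J difference was -0.88 (0.060), that of 129S1/ImJ 0.80 (0.114) and that of C3H/HeJ 0.82 (0.218), none of them called. Quantile normalization of all arrays ended the calls of DBA/2J (0.074) and C3H/HeJ (0.065), as did GLOBINclear arrays alone (0.066 and 0.055).

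Ndufb9, an accessory subunit of the LYR family at the far end of the membrane arm, was low in DBA/2J. The DBA/2J mice read 6.96, 7.41 and 7.26 in whole and 8.778, 8.621 and 9.001 in GLOBINclear RNA. In GLOBINclear RNA all other mice read higher, from 9.08 to 10.57, and in whole RNA all but 129S1/ImJ replicate 1 (7.18) did. The difference from the other 5 strains was -1.33 ± 0.23 (limma adjusted p = 0.0040) and it stayed past the threshold without any 1 mouse, at -1.41 to -1.26. FVB/NJ was higher by 1.01 ± 0.23 (adjusted p = 0.0199), but 0.83 (0.117) without its replicate 2 and past the threshold no longer without its replicate 3. The FVB/NJ call was also lost under quantile normalization of all arrays (0.80, adjusted p = 0.075) and with whole arrays alone (1.31, 0.052). A second Ndufb9 probe set gave -1.34 in DBA/2J (adjusted p = 0.0068) and 1.18 in FVB/NJ (0.0132).

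Ndufb8, whose protein is a common marker of assembled complex I, was high in FVB/NJ. The FVB/NJ mice read 5.57, 7.80 and 5.22 in whole and 7.89, 9.33 and 7.40 in GLOBINclear RNA. The mice of the other strains read at most 4.65 and 7.38, so the strain did not overlap the others in either preparation. The difference was 1.86 ± 0.32 (limma adjusted p = 0.0036), and 1.18 (0.0052) without FVB/NJ replicate 2, the mouse with the highest readings. It remained past the threshold without any 1 mouse, at 1.18 to 2.31.

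Ndufs8 and some further genes set C57Bl/6J or A/J apart. By its representative x_at set, Ndufs8 in whole RNA read 8.58, 8.41 and 8.63 in C57Bl/6J, above every other mouse. In GLOBINclear RNA it read 5.54, 5.70 and 5.66 in A/J, below every other mouse. The difference was 0.78 ± 0.16 in C57Bl/6J (limma adjusted p = 0.0078), kept without any 1 mouse, and -0.67 ± 0.16 in A/J (0.0302), lost in 5 omissions: of any A/J mouse, C3H/HeJ replicate 3 or DBA/2J replicate 3 (adjusted p up to 0.161). The gene's a_at set, which rose after globin removal, gave 0.26 (0.828) and -0.37 (0.622). The C57Bl/6J call of Ndufs8 was also lost under spike-in centring (0.075) and with GLOBINclear arrays alone (0.138), and the A/J call under quantile normalization of all arrays (0.088), spike-in centring (0.149), whole arrays alone (0.383) and GLOBINclear arrays alone (0.056). Ndufs4 was higher in C57Bl/6J by 0.66 ± 0.18 (0.0385), lost in 10 omissions (up to 0.171), under quantile normalization of all arrays (0.306), under spike-in centring (0.168) and with GLOBINclear arrays alone (0.407), and its other 3 tested sets differed by -0.09 to -0.01. Ndufa1 was lower in C57Bl/6J, at -0.56 ± 0.14 (0.0317). Its C57Bl/6J mice read 12.11 to 12.29 in GLOBINclear RNA, where the lowest mouse of another strain, A/J replicate 1, read 12.28. The call was lost without any 1 C57Bl/6J mouse or without A/J replicate 3 (up to 0.143), with no filter (0.058) and with whole arrays alone (0.234).

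Ndufs5 and Ndufv1 were called between strains in GLOBINclear RNA and not in whole RNA, where their adjusted p were 0.553 and 0.994; neither passed the interaction test, so a change of their strain differences between preparations is not shown. Ndufs5, a subunit on the intermembrane face, read 6.35, 6.27 and 7.14 in C3H/HeJ after globin removal, beside 4.71, 5.29 and 4.27 in 129S1/ImJ and 4.89, 4.89 and 4.41 in FVB/NJ, with no overlap. Ndufv1 read 4.46, 4.92 and 4.23 in 129S1/ImJ, and 3.30 to 3.32 in A/J and 3.17 to 3.36 in FVB/NJ. In these comparisons of each strain with the other 5, 11 pairs of gene and strain were called in all: 2 higher and 2 lower in C57Bl/6J, 2 lower in DBA/2J, 2 higher in FVB/NJ, 1 higher in 129S1/ImJ, 1 higher in C3H/HeJ and 1 lower in A/J. Of all probe sets, 3.87% were higher and 1.93% lower in C57Bl/6J, 1.03% and 1.11% in DBA/2J, 2.76% and 0.995% in FVB/NJ, 2.76% and 3.02% in 129S1/ImJ, 0.751% and 0.635% in C3H/HeJ, and 1.55% and 1.69% in A/J. The strains' marker means differed too. In whole RNA those of red cells ran from 6.67 in 129S1/ImJ to 7.97 in A/J, of B cells from 3.72 in FVB/NJ to 5.10 in DBA/2J, of T cells from 4.05 in A/J to 5.14 in 129S1/ImJ and of neutrophils from 4.32 in FVB/NJ to 5.89 in 129S1/ImJ. Their part in the strain differences was not tested.

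A pair of mice held most of the highest readings of the complex I genes. FVB/NJ replicate 2 had the highest of 18 values in 14 of the 33 genes in whole RNA and in 13 in GLOBINclear RNA, beside 8.12% and 7% of all probe sets. C57Bl/6J replicate 1 had it in 10 and 12, beside 11.5% and 14.9%. In both preparations FVB/NJ replicate 2 was highest in 12 genes: Ndufa4, Ndufa5, Ndufa7, Ndufb2, Ndufb6, Ndufb7, Ndufb8, Ndufb9, Ndufb11, Ndufc1, Ndufs1 and Ndufv2. C57Bl/6J replicate 1 was highest in both in 8 others: Ndufa9, Ndufa10, Ndufab1, Ndufb3, Ndufb5, Ndufc2, Ndufs7 and Ndufv1. Only 1 array of a preparation can be the highest for a gene, so these lists cannot share a gene. The share of all probe sets with either mouse highest in both preparations was not counted. A mouse's arrays share an RNA extract, so the second preparation repeats the reading of an extract and does not add a mouse. The median over the genes was 5.51 and 7.13 in FVB/NJ replicate 2 and 5.54 and 7.26 in C57Bl/6J replicate 1, beside means over all mice of 4.71 ± 0.35 (SD, n = 18) and 6.47 ± 0.41. The C57Bl/6J mouse also had the highest B cell marker means (6.00 and 7.70), the highest T cell mean in whole RNA (6.10), and the most probe sets at log2 5 or above (3122 and 5278). The FVB/NJ mouse had red cell means of 8.06 and 9.19, with the highest of all mice at 8.44 and 9.57, and B cell means of 3.36 and 5.02. The part of these cell markers in the mice's complex I readings was not tested. Without FVB/NJ replicate 2 the strain tests called 4 genes in whole and 7 in GLOBINclear RNA, and without C57Bl/6J replicate 1 they called 2 and 10.

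**Figure D5:**
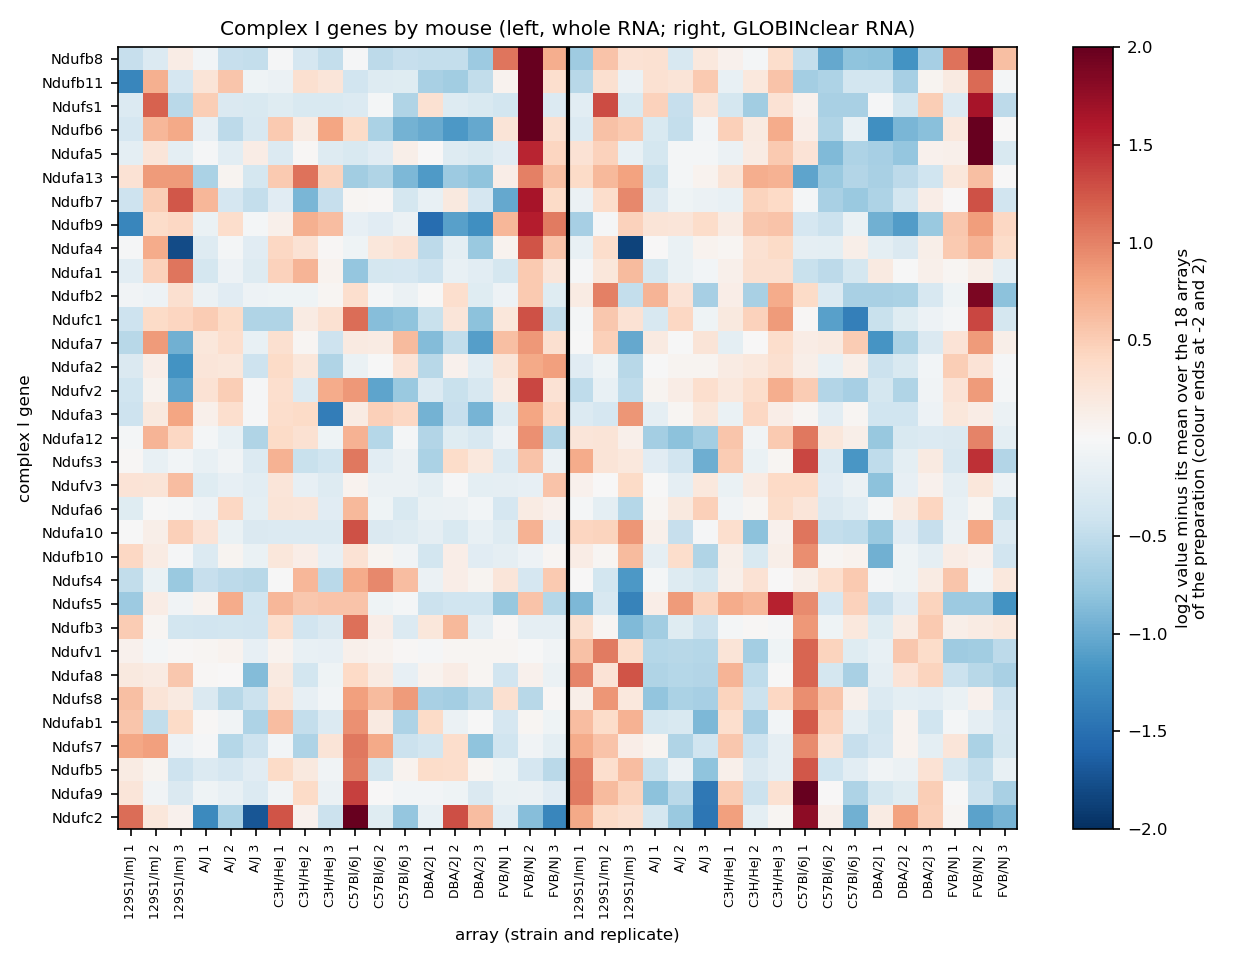
Log2 value of the 33 tested complex I genes on each array minus the gene's mean over the 18 arrays of that preparation (whole RNA left of the line, GLOBINclear RNA right), with colours ending at -2 and 2 and rows ordered by FVB/NJ replicate 2 minus C57Bl/6J replicate 1. The column of FVB/NJ replicate 2 is red in the upper rows and that of C57Bl/6J replicate 1 in the lower rows, on both sides of the line. Since the rows were ordered by these columns, that split follows from the ordering.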

How the data were processed

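The authors deposited a log2 value for each probe set and array, a scale read from the values. The submitters' processing notes name affy, GCRMA and MAS5, without version, role or order. Joint normalization of both preparations is not stated in the sources used here. Titles gave the group and replicate of each sample. Gene symbols came from the platform annotation, and 36 of 36 complex I genes matched the current gene table through Entrez numbers. Of 45037 probe sets that are no controls, those with a mean above the median of all means (log2 2.89) were tested. Fits were made with limma 3.58.1 (lmFit, eBayes with an intensity trend) in R 4.3.3 (tables read with the package data.table, version 1.17.8), adjusted by Benjamini-Hochberg at 0.05 over all probe sets tested, and tested on simulated data. The globin effect had the mouse as a block, since the study's design gives both arrays of a pair to 1 mouse; the arrays of a mouse deviated together with correlations of -0.08 to 0.66. Strains were compared by F tests in each preparation, and each with the mean of the other 5 on mouse averages. Genes were named by a rule: the 6 largest rises, every fall, probe sets that disagreed in sign or by over 1 log2, the 4 smallest interaction p, the 6 smallest strain p per preparation, up to 3 genes per strain, and up to 3 per pathway list by the moderated statistic. The complex I genes, the lists and the tests were chosen with earlier results of these data known, and the alternative without x_at sets after the Ndufs8 sets were seen. Scan date and kit run are not stated in the sources, and the number of arrays limits the precision. Plots used matplotlib 3.10.9 and pandas 2.3.3 under python 3.11.15. Promoter windows are RefSeq's (GRCm38.p6).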

Additional observations from a re-analysis of the deposited data

How the results depend on the processing

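The change after globin removal kept its direction and its side of the threshold in all 33 genes under median centring (median change 1.63) and quantile normalization within each preparation (1.56). It also did so in all 594 values with a mouse left out. A fit with no intensity trend, a fit with no replicate block and a filter at log2 4 leave each estimate as it was. They could therefore test the threshold and not the direction. All 33 genes kept their side of the threshold in each of these fits, as did the 31 genes left by the filter. The fit with no replicate block ignored the pairing of arrays by mouse and again gave 32 rises, 1 fall and 0 interactions. The scaling of the preparations against each other set the size of the change. Quantile normalization of all arrays gave a median of 0.54, with 8 genes at least 2-fold up, 25 rises and 3 falls (Ndufs8 at -2.72, Ndufa8 at -0.23 and Ndufb5 at -0.24), with Ndufs4 at -0.11 but not called, while Ndufa12 (0.06), Ndufab1 (0.07), Ndufb2 (0.26) and Ndufb9 (0.08) were no longer called. Spike-in centring, which moved the median of all tested probe sets to 2.03, gave 3.62, with 33 rises and 0 falls and Ndufs8 at 0.64. Ndufs8 also turned with the mean of all its probe sets (0.068, 0 falls) and without x_at sets (1.52, 0 falls). With no filter, the dim Ndufb4 and Ndufa4l2 passed as falls, making 3. The interaction called 1 gene under quantile normalization within each preparation. Leaving out 1 mouse gave 32 rises and 1 fall throughout, 0 to 1 interactions (1 without C57Bl/6J replicate 1 or 3), 1 to 4 genes by strain in whole RNA, 4 to 10 in GLOBINclear RNA and 7 to 14 strain contrasts, the lowest without A/J replicate 3 or DBA/2J replicate 3. The filter at log2 4 gave 6 genes by strain in whole RNA and 18 of the contrasts against 11. No filter gave 7 contrasts, whole arrays alone 5 and GLOBINclear arrays alone 7. Of the 11 contrasts, none changed sign under these alternatives. Quantile normalization of either kind lost 5 (Ndufs8 in A/J, Ndufa13 in C3H/HeJ and DBA/2J, Ndufs4 in C57Bl/6J, Ndufb9 in FVB/NJ). Spike-in centring and the mean of probe sets each lost 3 (Ndufs8 in A/J, Ndufs4 and Ndufs8 in C57Bl/6J). No filter lost 4 (Ndufs8 in A/J, Ndufa13 in C3H/HeJ, Ndufa1 and Ndufs4 in C57Bl/6J), and 2, those of Ndufs8, were lost without x_at sets. The remaining contrasts were of genes whose set did not change without x_at sets. The cause of these changes was not tested. Signal near background limits Ndufv1, Ndufa9 and Ndufb3 in whole RNA.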
